A study of Mus musculus with 3 samples.

Results

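The abundant non-coding RNAs of the mouse cornea were taken as the rows marked non-coding that had a raw count of 1000 or more in at least 1 library, leaving out Meg3, Rian, Mirg and H19, none of which came near that count. This gave 34 RNAs of 4973 non-coding rows and 21760 rows in all. Because they were chosen by their raw counts in these same libraries, their presence among abundant RNAs is a description and carries no test. Of the 34, 18 reached 1000 counts in every library, 4 in 2 libraries and 12 in a single library. Of those 12, 10 qualified through the excision library, 2 through the sham library and 0 through the PNU-282987 library, so the choice itself favours RNAs that were high after excision.

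RNA was sequenced from mouse cornea, the clear window at the front of the eye, with a single library for each of 3 groups. Mice of the PNU-282987 group were given this α7 nicotinic receptor agonist as eyedrops 3 times daily. In the excision group the tear-producing lacrimal gland had been cut out, which models dry eye by surgery. The sham group had an incision at the same place with the glands left alone. The labels do not say whether the PNU-282987 mice had also lost the gland, nor whether corneas of several mice went into a library, and they give no strain, age or sex. Without replicates no difference can be set against the spread between animals. Every comparison is between libraries, no test was made, and each fold carries a 95% interval that covers counting error only. A gene is called higher or lower when its scaled counts differ at least 2-fold and that interval excludes equal levels.

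Long non-coding RNAs are transcripts that are processed like messenger RNAs but are not known to encode a conserved protein. Some build structures in the nucleus, such as NEAT1 in paraspeckles and MALAT1 at nuclear speckles. Others carry small nucleolar RNAs (snoRNAs, which guide the chemical modification of ribosomal RNA) in their introns, and their spliced remainder is often degraded on ribosomes. Many are known only as gene models, and a good number lie across a coding gene on the other strand.

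The starts of the 3 RNAs that stood out in the excision library are shown because each lies beside a gene that interferon is known to induce. The sequences are RefSeq GRCm38.p6 promoters, 5′ to 3′ on the strand of the gene, with the 250 bases before the start in lower case and the 50 bases after it in capitals.
Gm20234 (chr11:83067651-83067950, minus strand): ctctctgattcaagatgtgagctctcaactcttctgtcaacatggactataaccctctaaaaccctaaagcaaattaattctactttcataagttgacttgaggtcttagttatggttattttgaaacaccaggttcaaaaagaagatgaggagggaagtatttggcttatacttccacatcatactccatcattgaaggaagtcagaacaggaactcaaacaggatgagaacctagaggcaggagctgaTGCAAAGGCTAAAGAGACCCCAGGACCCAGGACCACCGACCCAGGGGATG
AW011738 (chr4:156203034-156203333, plus strand): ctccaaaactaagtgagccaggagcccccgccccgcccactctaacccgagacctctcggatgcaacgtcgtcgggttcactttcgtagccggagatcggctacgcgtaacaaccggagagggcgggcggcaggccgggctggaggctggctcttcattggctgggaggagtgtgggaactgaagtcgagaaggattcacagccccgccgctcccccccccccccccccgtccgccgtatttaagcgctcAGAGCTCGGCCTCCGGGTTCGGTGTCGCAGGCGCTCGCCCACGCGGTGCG
Gm20559 (chr6:3346092-3346391, minus strand): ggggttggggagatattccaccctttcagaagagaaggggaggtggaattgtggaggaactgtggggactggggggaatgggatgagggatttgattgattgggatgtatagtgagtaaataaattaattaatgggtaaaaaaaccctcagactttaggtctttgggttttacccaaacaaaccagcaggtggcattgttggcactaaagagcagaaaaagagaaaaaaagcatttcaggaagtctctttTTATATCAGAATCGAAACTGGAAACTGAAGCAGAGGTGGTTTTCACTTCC

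Both strands of the promoters were searched for the interferon-stimulated response element, written here as GAAA, any 2 bases, GAAA, and for the gamma-activated site, written as TTC, any 3 bases, GAA. The second pattern reads the same on both strands, and a match of one may overlap a match of the other. The first occurred in 1131 of 32851 RefSeq promoters of this length, or 3.44%, and the second in 2726, or 8.30%. Of the 34 RNAs, 26 had a promoter in that table, with 35 promoters in all, and 0 of the 35 held either motif. Absence of these letters from a 300-base window says nothing about what binds there or elsewhere.

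The mature microRNAs of Mir31 are shown because Gm49890, one of the 34, spans that microRNA gene in the RefSeq annotation. Capitals mark the seed, bases 2 to 8 from the 5′ end, through which a microRNA pairs with its targets. The 2 strands of the hairpin have different seeds.
mmu-miR-31-5p (chr4:88910614-88910635, minus strand): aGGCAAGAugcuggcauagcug
mmu-miR-31-3p (chr4:88910577-88910599, minus strand): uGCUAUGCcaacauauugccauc

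Total counts were 39616004 in PNU-282987, 37692972 in excision and 37703843 in sham, so that a count of 0 allows up to 0.0757, 0.0796 and 0.0796 CPM (counts scaled to the library total) in the same order. The tissue label was checked against 10 corneal epithelium genes, which summed to 93218 CPM in PNU-282987, 78438 CPM in excision and 86726 CPM in sham. Of the 10, only Krt15 was called, higher than sham in both other libraries, with 241041, 137853 and 65935 counts in PNU-282987, excision and sham. Markers of other tissues and cells differed between the libraries. All 15 lens genes were called lower in excision than in sham and higher in PNU-282987 than in excision, with sums of 561, 22.3 and 658 CPM in PNU-282987, excision and sham. Of 13 conjunctiva and gland genes, 11 were called higher in PNU-282987 than in sham and 7 higher than in excision. Their sums were 12499, 10201 and 8565 CPM, mostly from Aqp5 and Krt13. Muc5ac of that list had 2980, 11 and 1 counts in PNU-282987, excision and sham. Of 10 corneal endothelium genes, 8 were called lower in excision than in sham and 8 higher in PNU-282987 than in excision. Their sums were 1174, 822 and 1471 CPM. Of 11 keratocyte and stroma genes, 3 were called lower in excision than in sham and 3 lower in PNU-282987 than in sham. The sums of these stroma genes were 1551, 1413 and 2219 CPM. Called lower in excision than in sham were also 8 of 9 retina genes (33.6, 7.77 and 23.1 CPM), 5 of 6 neutrophil genes (54.7, 28.5 and 49.6 CPM) and 4 of 5 red blood cell genes (9.42, 17.0 and 74.4 CPM). In PNU-282987, 4 of 6 neutrophil genes and 4 of 5 red blood cell genes were called lower than in sham, and 0 higher. The neutrophil sum includes Ltf, which is also on the gland list and had 1486, 995 and 920 counts. Of the retina genes 8 were called higher in PNU-282987 than in excision. All 13 interferon-stimulated genes were called higher in excision than in sham, with sums of 524, 3146 and 647 CPM, and 11 of 13 macrophage and lymphocyte genes were too, with sums of 41.4, 65.8 and 29.2 CPM. Of these marker genes, the lens gene Mip and the gland genes Muc5b, Scgb1b2 and Scgb2b2 were at 0 in excision. In sham, Scgb1b2 and Scgb2b2 as well as the T-cell genes Cd3g and Cd8a were at 0. Cd3g was at 0 in PNU-282987 too, where Cd8a had 1 count. The part of these markers in the values below was not tested, and in whole tissue fewer cells of a type and less RNA per cell cannot be told apart.

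Together the 34 RNAs took 0.384% of the counts in PNU-282987 (95% exact binomial interval 0.382 to 0.386), 0.503% in excision (0.501 to 0.506) and 0.454% in sham (0.452 to 0.456). The share was lowest in PNU-282987 and highest in excision. Because the same counts chose the RNAs, 10 of them through excision alone, this order is a description, and the intervals hold no spread between animals. All non-coding rows together followed the same order, with 0.595% in PNU-282987, 0.767% in excision and 0.713% in sham. The 34 RNAs held 64.5%, 65.6% and 63.7% of the non-coding counts in the 3 libraries, so their weight among non-coding counts moved little. The RNAs without the 3 most counted ones, A830036E02Rik, Neat1 and Malat1, made up 0.140% of the PNU-282987 library, 0.180% of the excision library and 0.161% of the sham library.

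**Figure D1:**
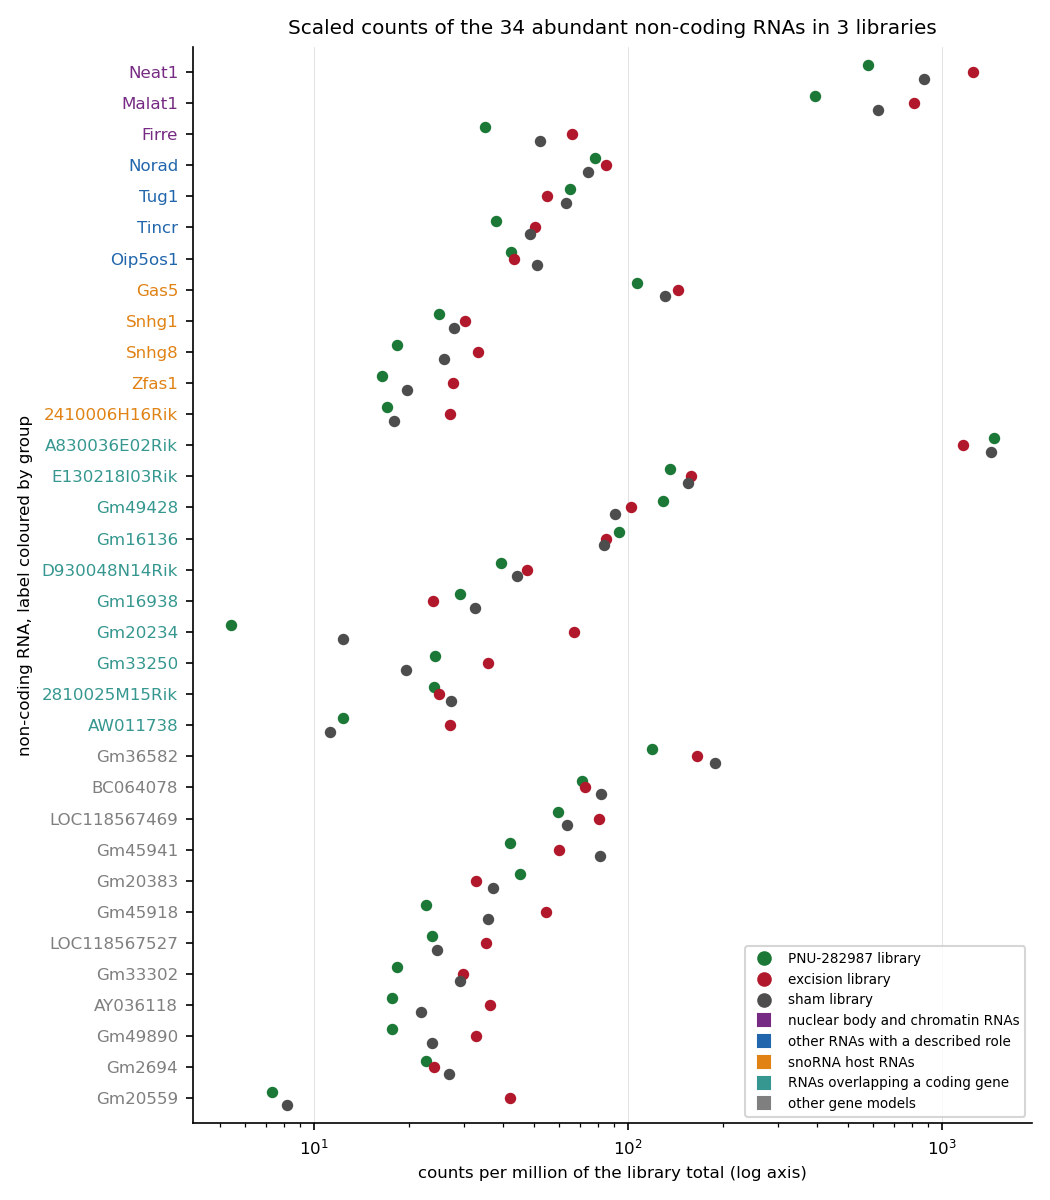
Scaled counts (CPM, log axis) of the 34 RNAs, one row each, with a green point for the PNU-282987 library, a red point for excision and a grey point for sham, and names coloured by group. The red point is the highest in 22 rows and the green point the lowest in 25, and Gm20234 and Gm20559 show the widest gaps.

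Most of the RNAs were highest in the excision library. Of the 34, 22 had their highest scaled count in excision and 25 their lowest in PNU-282987. With 2 other scalings, TMM and DESeq2 size factors, 23 instead of 25 were lowest in PNU-282987. Among all 14180 rows with at least 20 counts in a library, 31.5% were highest in excision and 38.3% lowest in PNU-282987. Among the 1109 non-coding rows of that set the shares were 44.2% and 52.6%, and among 5884 protein-coding rows with 1000 or more counts they were 32.1% and 32.6%. Since 10 of the 34 entered only through the excision library, the 22 are not support for a difference.

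Counted reads do not rank RNAs by abundance, since long RNAs collect more reads. Per kilobase of exon in GENCODE M21, which held 25 of the 34 under a matching name, A830036E02Rik led with 242, 194 and 237 RPKM (reads scaled to exon length and library total) in PNU-282987, excision and sham. Gm49428 came second by its mean with 168, 133 and 118 RPKM. Both share exon bases with a keratin gene that had far more counts. Whether strand was used in counting is not known, so their first places are uncertain. RNAs without a matching name, such as Norad, Tincr and Gm36582, could not be ranked. Malat1 had 56.6, 116 and 89.4 RPKM and stood above Neat1, at 27.9, 60.3 and 42.1 RPKM, although Neat1 had more reads in every library. The lengths used were 20771 exon bases for Neat1 and 6983 for Malat1. Which part of these lengths the reads came from was not tested. The order of Malat1 and Neat1 therefore holds for these lengths only and would change if most Neat1 reads came from a much shorter transcript. Gm20234 had 7.57, 93.6 and 17.3 RPKM, so that in the excision library alone it was close to the level of Malat1 per length.

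RNAs of nuclear bodies and chromatin were all lower in PNU-282987 than in excision, and all higher in excision than in sham, under each of the 4 scalings tried. Neat1, the scaffold around which paraspeckles form, had 22964 counts (580 CPM) in PNU-282987, 47199 (1252 CPM) in excision and 32936 (874 CPM) in sham. It was 2.16-fold lower in PNU-282987 than in excision (2.13 to 2.19), 1.43-fold higher in excision than in sham (1.41 to 1.45), and 1.51-fold lower in PNU-282987 than in sham (1.48 to 1.53). Of all 34 RNAs it was the most counted one in excision, while A830036E02Rik was the most counted in PNU-282987 and in sham.

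Malat1, which gathers at nuclear speckles and whose 3′ end is formed by RNase P, releasing the small RNA Mascrna, had 15646 counts (395 CPM) in PNU-282987, 30640 (813 CPM) in excision and 23536 (624 CPM) in sham. It was 2.06-fold lower in PNU-282987 than in excision (2.02 to 2.10), 1.30-fold higher in excision than in sham (1.28 to 1.32) and 1.58-fold lower in PNU-282987 than in sham (1.55 to 1.61). Malat1 and Neat1 are neighbours in the genome, and within a library the ratio of Neat1 to Malat1 counts was 1.47 in PNU-282987, 1.54 in excision and 1.40 in sham. The pair therefore kept nearly the same proportion while both differed between libraries.

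Firre, a transcript of chromosome X known for its part in the organisation of nuclear chromatin, had 1385 counts (35.0 CPM) in PNU-282987, 2498 (66.3 CPM) in excision and 1974 (52.4 CPM) in sham. Its fold of 1.90 lower in PNU-282987 than in excision (1.77 to 2.03) stopped short of 2-fold. Excision was 1.27-fold above sham (1.19 to 1.34), and PNU-282987 was 1.5-fold below sham (1.40 to 1.61). Xist, another large nuclear RNA of chromosome X, was no member, with 21 counts in PNU-282987, 21 in excision and 24 in sham. The 4 Y-linked genes listed summed to 146, 156 and 180 CPM in the same libraries, so each library held RNA of male mice. The low Xist counts are therefore no trait of the cornea in general, and the part of sex in them was not tested.

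Genes for the protein partners of these RNAs gave no call. Of 16 genes for paraspeckle proteins, including Sfpq and Nono, none was called in any of the 3 comparisons. Their median log2 ratios were 0.01 for PNU-282987 against excision, -0.02 for excision against sham and -0.05 for PNU-282987 against sham. Sfpq had 9199, 8554 and 9067 counts in PNU-282987, excision and sham, and Nono had 7582, 5320 and 5879. None of 12 nuclear speckle protein genes was called either, with medians of -0.10, -0.09 and -0.14 in the same order of comparisons. Among the 12, Srrm2, a core speckle protein, had 5566, 8999 and 6800 counts, highest in excision and lowest in PNU-282987. By scaled counts Acin1 and Rbm25 shared this order, which is also that of Malat1, and the other speckle genes did not. It held for 19.8% of coding rows with 1000 or more counts. The 9 measured genes of RNase P and related 3′ processing gave no call, with medians of -0.11, -0.12 and -0.18. The medians over all rows were 0.00, -0.08 and -0.08. Per comparison and direction, 2.26% to 5.90% of all rows were called, and 0.510% to 1.67% of coding rows with 1000 or more counts. With shares this low, the absence of calls is no result about these lists.

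RNAs that host snoRNAs were also lowest in PNU-282987 and highest in excision. Of the 5, Snhg8, Zfas1 and 2410006H16Rik reached 1000 counts in excision alone, so being high there was a condition of their choice, and the directions and medians of the group are a description. All 5 were higher in excision than in sham and lower in PNU-282987 than in excision. All 5 were lower in PNU-282987 than in sham too, except that 2410006H16Rik turned to slightly higher (log2 ratio 0.01 against -0.07) with TMM or DESeq2 scaling. None of the differences reached 2-fold, and the median log2 ratio of the 5 was -0.67 for PNU-282987 against excision, 0.36 for excision against sham and -0.27 for PNU-282987 against sham.

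Gas5, within which 8 snoRNAs are annotated, had 4240 counts (107 CPM) in PNU-282987, 5446 (144 CPM) in excision and 4942 (131 CPM) in sham. It was 1.35-fold lower in PNU-282987 than in excision (1.30 to 1.41), 1.10-fold higher in excision than in sham (1.06 to 1.15), and 1.22-fold lower in PNU-282987 than in sham (1.18 to 1.28). Snhg1, with 8 snoRNAs as well, had 988, 1141 and 1050 counts in PNU-282987, excision and sham, and was 1.21-fold lower in PNU-282987 than in excision (1.11 to 1.32). Its excision and sham counts could not be told apart at this depth (1.09-fold higher, 0.999 to 1.18), and PNU-282987 was 1.12-fold below sham (1.02 to 1.22).

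Snhg8 and Zfas1 entered the choice through the excision library alone, so their folds against excision are a description. Snhg8, host of Snora24, had 728 counts (18.4 CPM) in PNU-282987, 1255 (33.3 CPM) in excision and 976 (25.9 CPM) in sham, and was 1.81-fold lower in PNU-282987 than in excision (1.65 to 1.99), 1.29-fold higher in excision than in sham (1.18 to 1.40) and 1.41-fold lower in PNU-282987 than in sham (1.28 to 1.55). Zfas1 had 650 counts (16.4 CPM) in PNU-282987, 1044 (27.7 CPM) in excision and 744 (19.7 CPM) in sham, with folds of 1.69 lower (1.53 to 1.86), 1.40 higher (1.28 to 1.54) and 1.20 lower (1.08 to 1.34) in the same comparisons. Zfas1 lies across from Znfx1, a gene of the antiviral response, and 2.80% of its exon bases are shared with it on the other strand. Znfx1 had 1003 counts in PNU-282987, 1901 in excision and 814 in sham, and no source used here gives the strand setting of the counting, so reads of the pair cannot be told apart over the shared bases. 2410006H16Rik, which hosts Snord49a, Snord49b and Snord65, had 674, 1017 and 675 counts in PNU-282987, excision and sham, so that excision alone was high.

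The wider list of snoRNA hosts had 17 measured genes, of which 1 was called lower in PNU-282987 than in excision and none was called otherwise. The background called lower in that comparison was 5.69% of all rows and 18.7% of non-coding rows, so 1 of 17 is no result about the list. That gene was Snhg6, with 228, 470 and 411 counts in PNU-282987, excision and sham. The median log2 ratios of the 17 were -0.44 for PNU-282987 against excision, 0.19 for excision against sham and -0.29 for PNU-282987 against sham, and the 5 RNAs described above, 4 of which are on that list, do not stand independent of it. Of 10 genes for proteins of snoRNA particles, such as the methyltransferase Fbl and the pseudouridine synthase Dkc1, only the assembly factor Shq1 was called, higher in PNU-282987 than in excision, with 214, 86 and 119 counts. None of 12 nonsense-mediated decay genes, the pathway that degrades many spliced snoRNA host RNAs, was called in any comparison, with medians of -0.07, 0.02 and 0.07. Per comparison and direction 2.26% to 5.90% of all rows were called, so these counts of calls are no result about either list.

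The 4 RNAs with other described roles differed by at most 1.33-fold between libraries. Norad, which binds Pumilio proteins in the cytoplasm, had 3102 counts (78.3 CPM) in PNU-282987, 3207 (85.1 CPM) in excision and 2797 (74.2 CPM) in sham, with PNU-282987 1.09-fold below excision (1.03 to 1.14) and excision 1.15-fold above sham (1.09 to 1.21). Tug1, which is required for spermatogenesis in mice, had 2578 counts (65.1 CPM), 2076 (55.1 CPM) and 2387 (63.3 CPM) in the same order of libraries, and was 1.18-fold higher in PNU-282987 than in excision (1.11 to 1.25) and 1.15-fold lower in excision than in sham (1.08 to 1.22). For Tug1 the interval of PNU-282987 against sham included equal levels (1.03-fold higher, 0.972 to 1.09). Excision was thus the lowest library for Tug1, while it was the highest for Malat1.

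Oip5os1, also called Cyrano, which directs the decay of the microRNA miR-7, had 1683 counts in PNU-282987, 1628 in excision and 1927 in sham. PNU-282987 and excision were not distinguishable (1.02-fold lower, 0.949 to 1.09), while excision was 1.18-fold below sham (1.11 to 1.26) and PNU-282987 1.20-fold below sham (1.13 to 1.29). Tincr, known in human epidermis for a role in differentiation and described in the deposited table as a ubiquitin domain gene, had 1498, 1902 and 1831 counts in PNU-282987, excision and sham. It was 1.33-fold lower in PNU-282987 than in excision (1.25 to 1.43) and not distinguishable between excision and sham (1.04-fold higher, 0.974 to 1.11). The 22 measured RNAs of the list of long non-coding RNAs with a known role, which includes Malat1 and Neat1, gave 0 calls higher and 3 lower for PNU-282987 against excision, 1 higher and 1 lower for excision against sham, and 0 higher and 2 lower for PNU-282987 against sham. Among non-coding rows the background called lower was 18.7%, 8.93% and 16.9% in these comparisons, and called higher 4.33%, 8.57% and 5.68%. Of 22 listed small structural RNAs, 1 had a row in the table, with a single count in all libraries, so these libraries say nothing about that class.

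The 10 RNAs that lie across a coding gene took more counts than any other group in PNU-282987 and sham, while in excision the 3 nuclear RNAs took more, 2131 CPM. The 10 summed to 1954 CPM in PNU-282987, 1740 CPM in excision and 1909 CPM in sham, most of it from A830036E02Rik. Where a pair lies on opposite strands and strand is not known to have been used in counting, reads of the RNA and of the coding gene cannot be told apart where they share bases, so the counts of the RNAs are given with those of their partners.

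A830036E02Rik lies opposite Krt12, the keratin of the corneal epithelium, and shares 16.7% of its exon bases with it. It had 57877 counts (1461 CPM) in PNU-282987, 44054 (1169 CPM) in excision and 54044 (1433 CPM) in sham, and was 1.25-fold higher in PNU-282987 than in excision (1.23 to 1.27), 1.23-fold lower in excision than in sham (1.21 to 1.24) and 1.02-fold higher in PNU-282987 than in sham (1.01 to 1.03). Krt12 had 1634592, 1135144 and 1541851 counts in the same libraries. For every 100 Krt12 counts there were 3.54, 3.88 and 3.51 counts of the RNA, and excision was the low library for both the RNA and the keratin gene.

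Gm49428 lies opposite Krt6a, a keratin induced in stressed and wounded epithelium, and shares 61.6% of its exon bases with it. It had 5096 counts (129 CPM) in PNU-282987, 3840 (102 CPM) in excision and 3417 (90.6 CPM) in sham, with PNU-282987 1.26-fold above excision (1.21 to 1.32), excision 1.12-fold above sham (1.07 to 1.18) and PNU-282987 1.42-fold above sham (1.36 to 1.48). Per 100 Krt6a counts it had 1.89 counts in PNU-282987, 1.96 in excision and 1.89 in sham. PNU-282987 was the high library and sham the low one for both the RNA and the keratin gene.

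The next pairs did not all keep a fixed proportion. E130218I03Rik, which overlaps the zinc finger gene Zfp593 over 76.6% of its exon bases, had 5401, 5964 and 5837 counts in PNU-282987, excision and sham, and differed by at most 1.16-fold between libraries (PNU-282987 below excision, 1.12 to 1.20). Zfp593 had 705, 874 and 749 counts in the same libraries. Gm16136 lies opposite Grhl2, a transcription factor of epithelial cells, and had 3697 counts in PNU-282987, 3194 in excision and 3149 in sham, 1.10-fold higher in PNU-282987 than in excision (1.05 to 1.16). Grhl2 went the other way in that comparison, with 2469 counts in PNU-282987, 2734 in excision and 2477 in sham. Gm16938 overlaps the bounds of the calpain gene Capn5 without shared exon bases and had 1155, 899 and 1222 counts, against 23139, 26625 and 20901 counts of Capn5. Excision was thus the lowest library for Gm16938 and the highest for Capn5.

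D930048N14Rik, opposite N4bp3, had 1560, 1798 and 1665 counts in PNU-282987, excision and sham. This was 20.3, 20.5 and 22.1 counts per 100 of N4bp3, which had 7678, 8787 and 7532 counts, although the models share no exon bases. 2810025M15Rik, opposite Rasal2, had 950, 943 and 1027 counts and showed no distinguishable difference between PNU-282987 and excision (1.04-fold lower, 0.952 to 1.14), beside 1195, 1382 and 1137 counts of Rasal2. Gm33250, which overlaps the envoplakin gene Evpl, a component of the cornified envelope, had 958 counts in PNU-282987, 1348 in excision and 741 in sham, and was 1.48-fold lower in PNU-282987 than in excision (1.36 to 1.61) and 1.82-fold higher in excision than in sham (1.66 to 1.99). Gm33250 entered the choice through the excision library alone, so its folds against excision are a description. Evpl had the same order of libraries, with 69938, 93851 and 62404 counts.

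**Figure D2:**
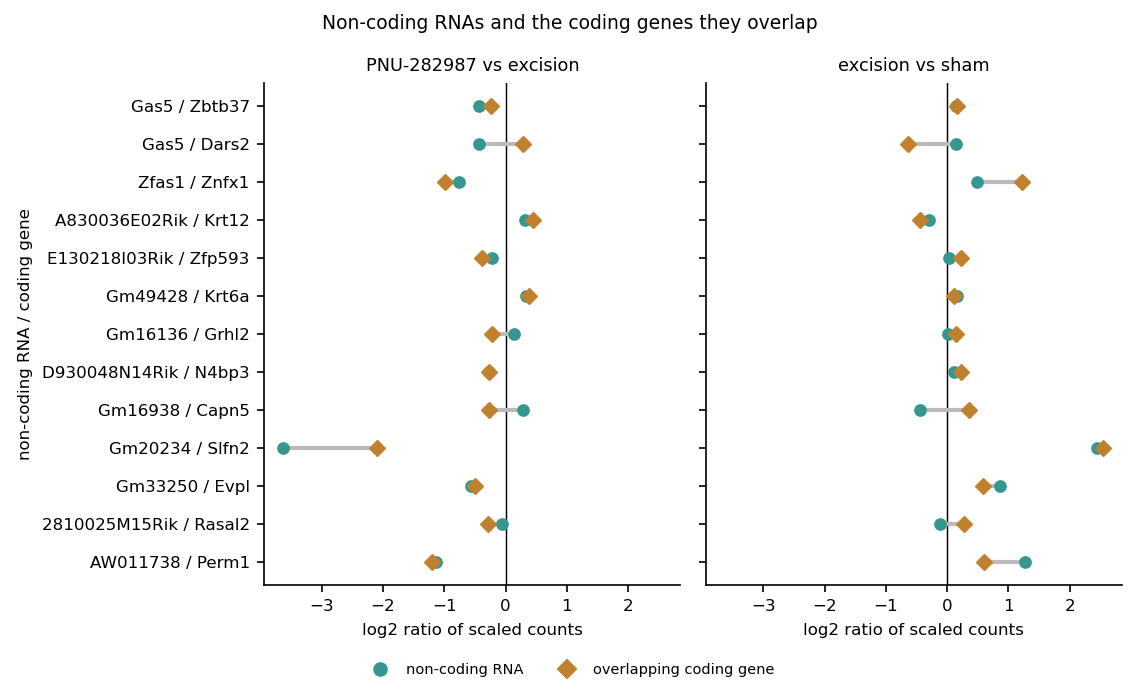
Log2 ratios of scaled counts for each RNA that overlaps a coding gene (green circles) and for that coding gene (brown diamonds), PNU-282987 against excision on the left and excision against sham on the right, joined by a grey bar. The A830036E02Rik and Krt12, Gm49428 and Krt6a, and D930048N14Rik and N4bp3 points lie close together, while Gm16938 and Capn5 lie on opposite sides of 0 in both panels.

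Against sham, the excision library had 3 of the 34 RNAs called higher and 0 called lower. The background was 3.58% of all tested rows called higher and 5.90% called lower, and in non-coding rows 8.57% and 8.93%. Among coding rows with 1000 or more counts the shares were 1.39% and 0.952%. The 3 are 8.82% of the 34, close to the share in non-coding rows, so the count is not a result about abundant RNAs. All 3 reached 1000 counts in the excision library alone and so could be members only by being high there. The median log2 ratio of the 34 was 0.15, beside -0.08 for all rows, 0.03 for non-coding rows and -0.05 for abundant coding rows. With members limited to the 18 that had 1000 counts in every library, none was called and the median was 0.04.

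Gm20234 had 215 counts (5.43 CPM) in PNU-282987, 2530 (67.1 CPM) in excision and 467 (12.4 CPM) in sham. It was 5.42-fold higher in excision than in sham (4.91 to 5.99), 12.4-fold lower in PNU-282987 than in excision (10.8 to 14.3) and 2.28-fold lower in PNU-282987 than in sham (1.94 to 2.70). It is a model on the strand opposite Slfn2, a Schlafen gene induced by interferon, within the same stretch but without shared exon bases. Slfn2 had 1174 counts in PNU-282987, 4779 in excision and 820 in sham, being 5.83-fold higher in excision than in sham and 4.28-fold lower in PNU-282987 than in excision. The 2 genes parted between PNU-282987 and sham, where Slfn2 was 1.36-fold higher and Gm20234 lower, and there were 18.3 counts of Gm20234 per 100 of Slfn2 in PNU-282987, 52.9 in excision and 57.0 in sham. The flanking coding genes Slfn8 and Slfn1 had 29, 254 and 17 counts, and 3, 156 and 8 counts, so excision was the high library for these genes as well.

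Gm20559 had 290 counts (7.32 CPM) in PNU-282987, 1583 (42.0 CPM) in excision and 309 (8.20 CPM) in sham. It was 5.12-fold higher in excision than in sham (4.53 to 5.81) and 5.74-fold lower in PNU-282987 than in excision (5.06 to 6.52). PNU-282987 and sham were not distinguishable at this depth (1.12-fold lower, 0.951 to 1.32). It lies next to Samd9l, which is induced by interferon and had 7847, 8247 and 6643 counts, so the excision library was high for the RNA and little different for its neighbour (1.24-fold above sham).

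AW011738 had 488 counts (12.3 CPM) in PNU-282987, 1018 (27.0 CPM) in excision and 424 (11.2 CPM) in sham. It was 2.40-fold higher in excision than in sham (2.14 to 2.70) and 2.19-fold lower in PNU-282987 than in excision (1.97 to 2.45), with no distinguishable difference between PNU-282987 and sham (1.10-fold higher, 0.960 to 1.25). In the annotation it lies between Perm1, whose bounds it overlaps, and Isg15, which encodes a ubiquitin-like protein induced by interferon. Isg15 had 1732 counts in PNU-282987, 20819 in excision and 3731 in sham, 5.58-fold higher in excision than in sham and 12.6-fold lower in PNU-282987 than in excision. Perm1 had 66, 144 and 95 counts in PNU-282987, excision and sham. Excision was the high library for all 3 genes. The summed interferon-stimulated genes given above were also highest in excision, and their part in the values of these 3 RNAs was not tested.

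Against excision, the PNU-282987 library had 0 of the 34 RNAs called higher and 7 called lower, beside a background of 3.84% and 5.69% of all tested rows. The 7 are 20.6% of the 34, close to the 18.7% of non-coding rows called lower and above the 1.67% of coding rows with 1000 or more counts. Called higher were 4.33% of non-coding rows and 0.833% of those coding rows. The share called lower was thus about the same for the 34 as for the 1109 non-coding rows, which include them, so the count is not a result about abundant RNAs. The median log2 ratio was -0.46 for the 34, 0.00 for all rows, -0.30 for non-coding rows and 0.04 for abundant coding rows. Of the 34, 28 lay below 0. Because 10 of the 34 entered through excision alone and 0 through PNU-282987 alone, this median and the 28 are a description. Of the 7 called, Gm20234, Gm20559, AW011738 and AY036118 entered through excision alone. Of the 18 RNAs with 1000 counts in every library, 2 were called lower, Neat1 and Malat1, and the median of the 18 was -0.25.

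**Figure D3:**
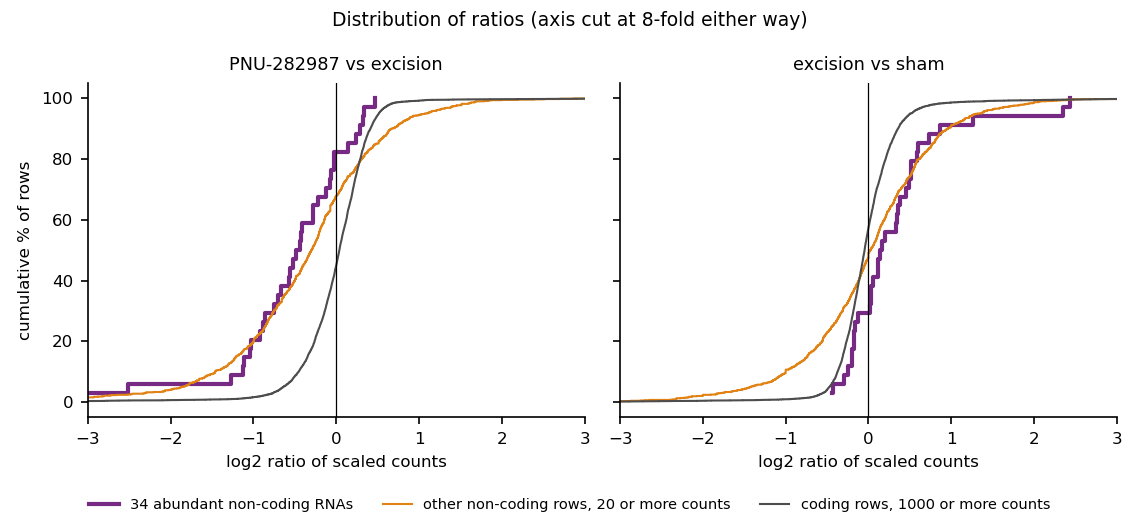
Cumulative share of rows (vertical axis, %) at or below a log2 ratio of scaled counts, for the 34 abundant non-coding RNAs (purple), other non-coding rows with at least 20 counts in a library (orange) and coding rows with at least 1000 counts (grey). In the left panel, PNU-282987 against excision, the purple and orange curves lie left of the grey one, and the axis leaves out values beyond 3 on either side, Gm20234 among them.

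Beside Neat1, Malat1 and the 3 RNAs above, the called RNAs were Gm45918 and AY036118. Gm45918, a gene model whose nearest coding genes had at most 10 counts in any library, had 898 counts (22.7 CPM) in PNU-282987, 2056 (54.5 CPM) in excision and 1352 (35.9 CPM) in sham. It was 2.41-fold lower in PNU-282987 than in excision (2.22 to 2.61), 1.52-fold higher in excision than in sham (1.42 to 1.63) and 1.58-fold lower in PNU-282987 than in sham (1.45 to 1.72). AY036118 had 703 counts (17.7 CPM) in PNU-282987, 1370 (36.3 CPM) in excision and 827 (21.9 CPM) in sham, and was 2.05-fold lower in PNU-282987 than in excision (1.87 to 2.25), 1.66-fold higher in excision than in sham (1.52 to 1.81) and 1.24-fold lower in PNU-282987 than in sham (1.12 to 1.37). It overlaps Rn18s-rs5, a pseudogene named for 18S ribosomal RNA, and the part of ribosomal RNA reads in its counts was not tested.

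Other gene models stayed below 2-fold in this comparison. Gm49890, the model that spans Mir31, had 703 counts in PNU-282987, 1232 in excision and 896 in sham and was 1.84-fold lower in PNU-282987 than in excision (1.68 to 2.02). The mature microRNAs shown above were not measured here. Gm33302 was 1.63-fold lower (1.48 to 1.79), with 725, 1122 and 1101 counts, so that PNU-282987 alone was low. LOC118567527, with 939, 1329 and 929 counts, was high in excision alone. LOC118567527 and Gm49890 entered the choice through the excision library alone, so their differences from excision are a description. The 6 RNAs above 0 in PNU-282987 against excision were Gm20383, Gm49428, A830036E02Rik, Gm16938, Tug1 and Gm16136. Gm20383 had the largest of these folds, 1.38 (1.28 to 1.49), with 1797 counts in PNU-282987, 1238 in excision and 1398 in sham.

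**Figure D4:**
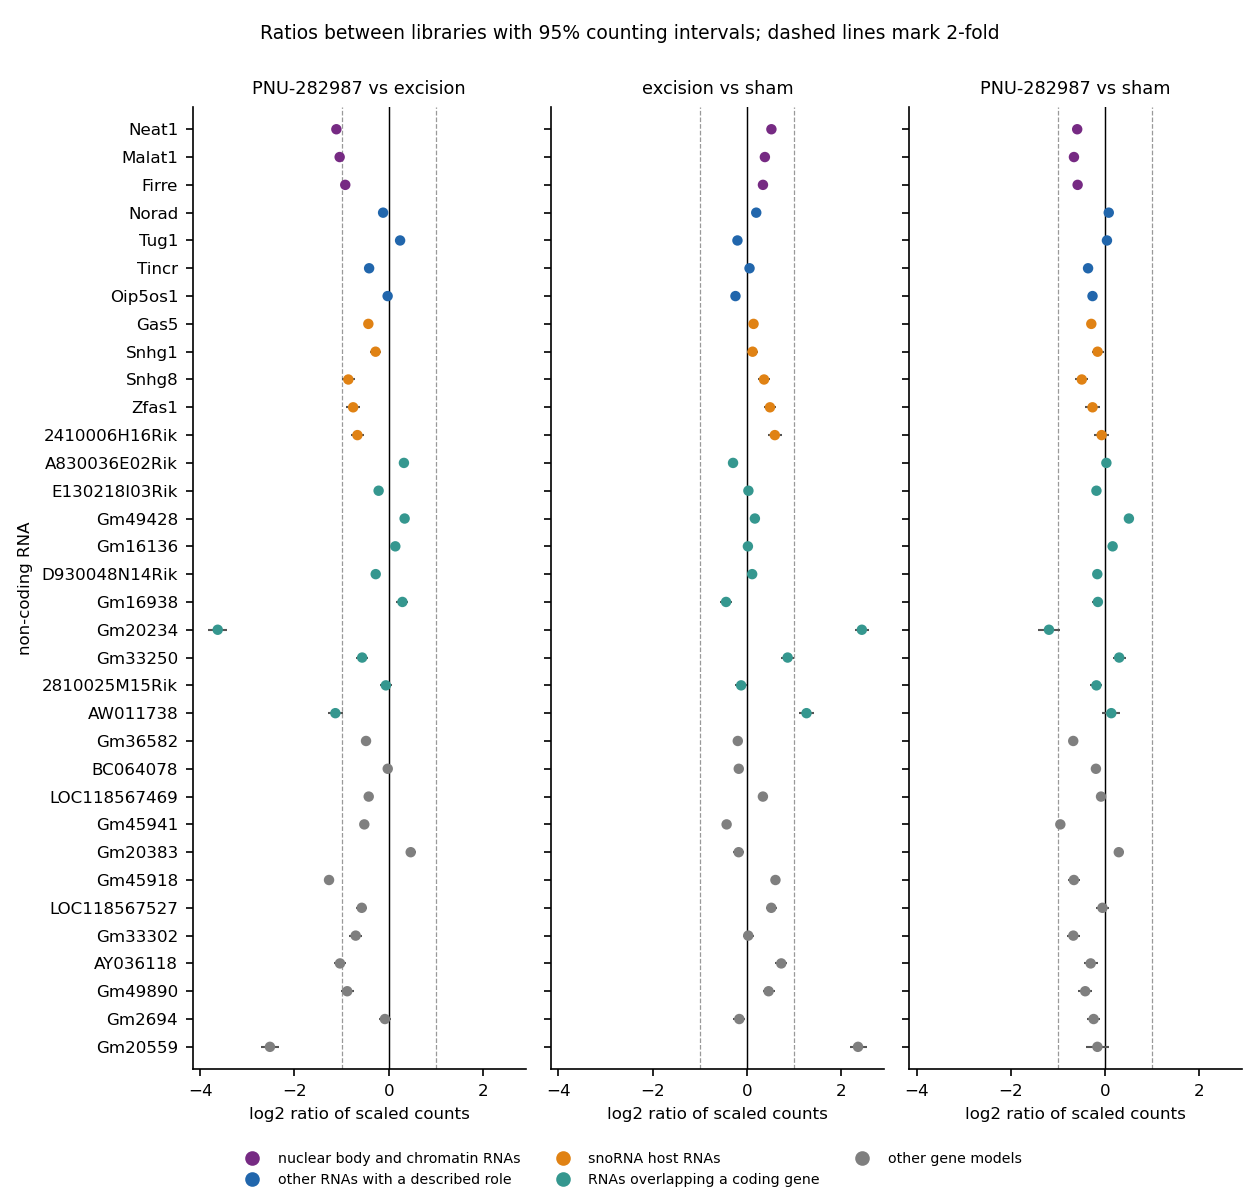
Log2 ratios of scaled counts of the 34 RNAs with 95% counting intervals, in 3 panels for PNU-282987 against excision, excision against sham and PNU-282987 against sham, coloured by group, with dashed lines at 2-fold. In the left panel 28 points lie below 0 and 7 are called beyond the lower dashed line, and in the right panel Gm20234 alone is.

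Against sham, the PNU-282987 library had 0 of the 34 RNAs called higher and 1 called lower, Gm20234, beside a background of 2.26% and 5.82% of all tested rows. Among non-coding rows 5.68% were called higher and 16.9% lower, and among coding rows with 1000 or more counts 0.510% and 0.561%. The 1 RNA is 2.94% of the 34. The median log2 ratio was -0.19 for the 34, -0.08 for all rows and -0.29 for non-coding rows, and 26 of the 34 lay below 0. With TMM and DESeq2 size factors the median of the 34 was -0.11 and -0.10, and 24 lay below 0. The fold nearest to the threshold was that of Gm45941, 1.93 lower in PNU-282987 than in sham (1.82 to 2.05), with 1666 counts (42.1 CPM) in PNU-282987, 2271 (60.3 CPM) in excision and 3062 (81.2 CPM) in sham. This model was 1.43-fold lower in PNU-282987 than in excision (1.34 to 1.53) and 1.35-fold lower in excision than in sham (1.28 to 1.42), so sham was its high library.

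Gm36582, between Pbp2 and Emp1, had the same order, with 4700 counts (119 CPM) in PNU-282987, 6246 (166 CPM) in excision and 7145 (190 CPM) in sham. It was 1.60-fold lower in PNU-282987 than in sham (1.54 to 1.66), 1.40-fold lower in PNU-282987 than in excision (1.34 to 1.45) and 1.14-fold lower in excision than in sham (1.11 to 1.18). Emp1, an epithelial membrane protein gene with 613794, 416096 and 456230 counts, was highest in PNU-282987, the library in which Gm36582 was lowest. The remaining models differed by at most 1.34-fold. BC064078, between Clec2g and Clec2f, had 2833, 2736 and 3085 counts in PNU-282987, excision and sham, LOC118567469 had 2375, 3034 and 2399, and Gm2694, beside Cbln1, had 901, 907 and 1015. For BC064078 PNU-282987 and excision were not distinguishable (1.02-fold lower, 0.963 to 1.07), and for LOC118567469 PNU-282987 was 1.34-fold below excision (1.27 to 1.42) with excision its high library.

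At the edge of the choice, the 5 RNAs just inside it were Gm2694, 2410006H16Rik, AW011738, 2810025M15Rik and Zfas1, whose highest counts lay between 1015 and 1044. The 5 just outside were Gm41832, Brip1os, Mir22hg, Gm32793 and B230206H07Rik, whose highest counts lay between 775 and 993. Gm41832 had 911 counts in PNU-282987, 993 in excision and 790 in sham, and Mir22hg, a microRNA host, had 524, 703 and 795. Of 5 measured microRNA hosts only Mir205hg was called, lower in PNU-282987 than in sham, with 56, 97 and 162 counts in PNU-282987, excision and sham. Among non-coding rows 16.9% were called lower in that comparison, so 1 of 5 is no result about the list. Among RNAs antisense to eye genes the 1 measured was Pax6os1, with 477, 338 and 430 counts and no call. Annotations also disagree on the class itself. In GENCODE M21, 3 of the 34, E130218I03Rik, D930048N14Rik and AW011738, are protein coding and 2, 2810025M15Rik and BC064078, are pseudogenes.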

How the data were processed

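Corneal RNA was measured in 3 libraries, 1 per group, and the table the authors deposited holds raw counts (whole numbers of reads for each gene) with a coding or non-coding mark. TRIzol extraction and the VAHTS Universal V6 library kit were used, per the labels' protocols. Per the submitters' processing notes, HTSeq and R 3.2.0 were used. Not given in the sources used here: the aligner, genome build, annotation, strand setting and treatment of shared reads. Columns were tied to samples by title.

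Counts were divided by each library's total of all rows (CPM). A ratio of 2 scaled counts was given its exact conditional binomial (Clopper-Pearson) 95% interval, and called when at least 2-fold with the interval excluding 1. With 1 library per group no p-value was computed. As reads carried no molecular identifiers and may be copies of 1 molecule, intervals and floors (3 counts per library) cover counting error only. The background was the 14180 rows that reached 20 counts in any library. Neighbours and overlaps came from RefSeq GRCm38.p6 by gene ID (32 of 34 matched), and strands, shared exon bases and lengths from GENCODE M21 (25 of 34 by name). Promoter and microRNA sequences are RefSeq's.

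The members and gene lists were chosen with earlier results of these data known. Named in full are the 12 RNAs with the highest mean CPM, those called in a comparison and those on role lists, and counts are given for all 34. The calling scheme was tested on simulated data. Alternatives were TMM (edgeR 4.0.16) and DESeq2 1.42.0 size factors in R 4.3.3, the protein-coding total, other folds, no count minimum and other membership minimums. The remaining steps used Python 3.11.15, NumPy 2.4.6, pandas 2.3.3, SciPy 1.17.1 and matplotlib 3.10.9.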

Additional observations from a re-analysis of the deposited data

How the results depend on the processing

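No paired analysis was possible because each group has a single library, and leaving out a library leaves no comparison. TMM, DESeq2 size factors and the protein-coding total changed no call of the 34 RNAs. TMM and DESeq2 turned the direction of 2410006H16Rik and LOC118567527 in PNU-282987 against sham, to log2 ratios of 0.01 and 0.02 with TMM and 0.01 and 0.03 with DESeq2. TMM and DESeq2 moved 18 and 19 of 102 ratios of single RNAs by more than their counting error.

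The counts of calls follow the thresholds. For PNU-282987 against excision, 7 RNAs were called lower at 2-fold, 13 at 1.5-fold, 2 at 3-fold, 11 of 58 with 500 counts as the minimum, 4 of 16 with 2000, 2 of 18 with 1000 in every library (median -0.25), and 5 of 22 without RNAs that overlap a coding gene, a choice made after seeing the data. For excision against sham, 3 were called higher at 2-fold, 7 at 1.5-fold, 2 at 3-fold, 5 of 58 (and 1 lower) with 500, 1 of 16 with 2000, 0 of 18 with 1000 in every library (median 0.043), and 1 of 22 without overlapping RNAs (median 0.27). For PNU-282987 against sham, 1 was called lower at 2-fold, 7 at 1.5-fold, 0 at 3-fold, 3 of 58 with 500, 0 of 18 with 1000 in every library and 0 of 22 without overlapping RNAs. At 1.5-fold the share of all rows called was 11.4% lower for PNU-282987 against excision, 6.74% higher for excision against sham and 11.7% lower for PNU-282987 against sham.

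The share of counts in the RNAs, in PNU-282987, excision and sham, was 0.392%, 0.511% and 0.439% with TMM, 0.392%, 0.510% and 0.438% with DESeq2 size factors and 0.386%, 0.507% and 0.458% of the protein-coding total. It was 0.413%, 0.543% and 0.490% with 500 counts as the minimum, 0.340%, 0.443% and 0.405% with 2000, 0.354%, 0.448% and 0.418% with 1000 in every library, and 0.176%, 0.312% and 0.248% without overlapping RNAs. PNU-282987 had the lowest and excision the highest share under each of these settings. A single library per group leaves the variation from animal to animal unmeasured, and depth limits the ratios whose interval includes 1.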
